A study of Mus musculus with 4 samples.

Results

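Janus kinases (JAKs) and signal transducers and activators of transcription (STATs) were followed on 4 microarrays of peritoneal cells, as the 9 genes Stat2, Stat3, Stat4, Stat5a, Stat5b, Stat6, Jak1, Jak2 and Jak3. They were chosen as a gene family, and their probes were found through the RefSeq accession that the array gives for each probe. All 9 had a probe, which gave 14 probes of the 56605 on the array and 9 genes of the 22911 that could be named. Stat2, Stat3, Stat5a, Jak2 and Jak3 had 2 probes each and the other 4 genes had 1. Each of the 14 probes was printed as a single spot. Of the 14, 13 were well above background on all 4 arrays, and all 9 genes had at least 1 such probe.

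The groups were LysM-St18flox cells after 3 h with lipopolysaccharide (LPS), wild-type cells after 3 h with LPS, LysM-St18flox cells at 0 h and wild-type cells at 0 h, with 1 array each. LPS, a bacterial cell wall lipid, is sensed by Toll-like receptor 4. All mice had been injected with 4% thioglycollate, which recruits white cells to the cavity, and cells were washed out after 3 days. The design asked how LPS and the St18 genotype change gene expression in these cells. St18 encodes a zinc finger transcription factor, and LysM names the lysozyme promoter, which is active in macrophages and in neutrophils. The labels call the cells peritoneal macrophages and describe each sample as from a mouse of the given genotype, while the titles read PEC (peritoneal exudate cells). The sources used here give neither the LPS dose, nor the age of the mice, nor the part of St18 that was altered.

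Most cytokine receptors have no kinase of their own and carry JAKs on their inner tails. When a cytokine joins the receptor chains, the JAKs phosphorylate each other and the receptor, STATs dock on the receptor and are phosphorylated in turn, and STAT dimers enter the nucleus to bind DNA. In macrophages STAT2 is known for type I interferon, STAT3 for interleukin-6 and interleukin-10, STAT4 for interleukin-12, STAT5 proteins for granulocyte-macrophage colony-stimulating factor, and STAT6 for interleukin-4 and interleukin-13. JAK1 and JAK2 serve many receptors, and JAK3 works with the common gamma chain of the interleukin-2 receptor family.

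A level is given here as the log2 processed signal of the probe minus the 75th percentile of its array, and a difference is the difference of such levels between 2 arrays. The 75th percentile was 882 signal units in LysM-St18flox cells at 3 h, 755 in wild-type cells at 3 h, 1067 in LysM-St18flox cells at 0 h and 672 in wild-type cells at 0 h. Between 52.2% and 55.6% of the spots of an array were well above background, with none saturated. Repeatedly printed probes put the spot error of a difference at 0.05 to 0.10 (SD, log2) at the levels of the 14 probes. This error covers spots only. With 1 array a group there was no replicate check and no test, and a difference was called when it reached 2-fold (1 on the log2 scale). Of 2 St18 probes, 1 was dim (not well above background) on all 4 arrays and 1 was well above background in wild-type cells only, so by the second the LysM-St18flox level of St18 was lower by a factor of 8.48 or more at 3 h and 7.07 or more at 0 h. All 10 macrophage markers were well above background on all 4 arrays. In such bulk samples, fewer cells of a type and less RNA per cell cannot be told apart.

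Upstream sequence is shown for Stat2 and Jak2, which were more than 2-fold higher after LPS by the results below. It is also shown for the second annotated start of Stat4, since Stat2 and Stat4 were the 2 genes with a match to a searched motif. Stat5a passed 2-fold by 1 of its 2 probes only, and its windows, which held no match, are not shown. The first searched motif was GAAA, any 2 bases and GAAA, the core of elements bound by interferon-activated complexes with STAT2. The others were TTC and GAA parted by any 3 or by any 4 bases, the palindromic elements bound by STAT dimers. Capitals mark the matches found on either strand in the 250 bases before the start (RefSeq, build GRCm38.p6, plus strand for all 3 genes).

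Stat2 (chr10:128270248-128270497): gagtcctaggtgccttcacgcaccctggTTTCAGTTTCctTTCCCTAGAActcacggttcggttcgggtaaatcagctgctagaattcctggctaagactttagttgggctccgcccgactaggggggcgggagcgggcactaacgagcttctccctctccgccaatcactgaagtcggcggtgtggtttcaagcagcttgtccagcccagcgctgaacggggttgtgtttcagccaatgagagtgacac

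Jak2 (chr19:29251553-29251802): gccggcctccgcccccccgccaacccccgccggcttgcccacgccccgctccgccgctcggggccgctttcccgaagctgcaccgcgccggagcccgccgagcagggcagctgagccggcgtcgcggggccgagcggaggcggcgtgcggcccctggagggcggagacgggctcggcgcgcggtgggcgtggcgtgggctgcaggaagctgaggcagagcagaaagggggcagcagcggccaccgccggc

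Stat4, second start (chr1:52007990-52008239): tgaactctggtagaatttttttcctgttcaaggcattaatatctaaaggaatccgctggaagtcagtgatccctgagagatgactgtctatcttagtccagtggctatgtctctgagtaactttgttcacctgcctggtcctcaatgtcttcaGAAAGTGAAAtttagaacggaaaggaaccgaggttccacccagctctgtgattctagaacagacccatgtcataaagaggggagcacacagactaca

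The Stat2 window held GAAACTGAAA on the minus strand, from 222 to 213 bases before the start. It also held TTCCCTAGAA, from 210 to 201 bases before the start, a palindromic pattern that matches on both strands. The Stat4 window held GAAAGTGAAA on the plus strand, from 97 to 88 bases before the start. The GAAA motif was present in 2.98% of 32851 such windows of the table, the TTC and GAA motif with 3 bases between in 7.02% and that with 4 in 5.85%. The other 10 of the 12 windows of the 9 genes held no match. A match describes the sequence and was not tested for binding.

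After LPS, Jak2 and Stat2 were well above their 0 h levels in both genotypes, and Stat5a was by 1 of its 2 probes. By the probe of each gene that was brightest over the 4 arrays, Jak2, Stat2 and Stat5a were between 6.93-fold and 14.3-fold higher at 3 h in both genotypes, Stat6 was lower in both, and the other 5 genes were higher by less than 2-fold. By that probe, 3 of the 9 passed 2-fold upward and none downward, in LysM-St18flox cells and in wild-type cells alike. With the probe that was brightest on the 0 h arrays, a choice added after seeing the data, 2 of the 9 passed it in each genotype, without Stat5a. The same threshold was passed upward by 8.12% and downward by 8.97% of 12976 measured genes in LysM-St18flox cells, and by 9.04% and 11.6% of 12588 in wild-type cells. The median difference of the 9 genes was 0.56 in LysM-St18flox cells and 0.50 in wild-type cells, while that of all measured genes was -0.09 in LysM-St18flox cells and -0.11 in wild-type cells. Scaling on the array median in place of the 75th percentile moved the median of all genes by 0.23 in LysM-St18flox cells and by 0.09 in wild-type cells. The LysM-St18flox split was then 1376 genes higher and 742 lower, against 1054 and 1164 with the 75th percentile.

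**Figure D1:**
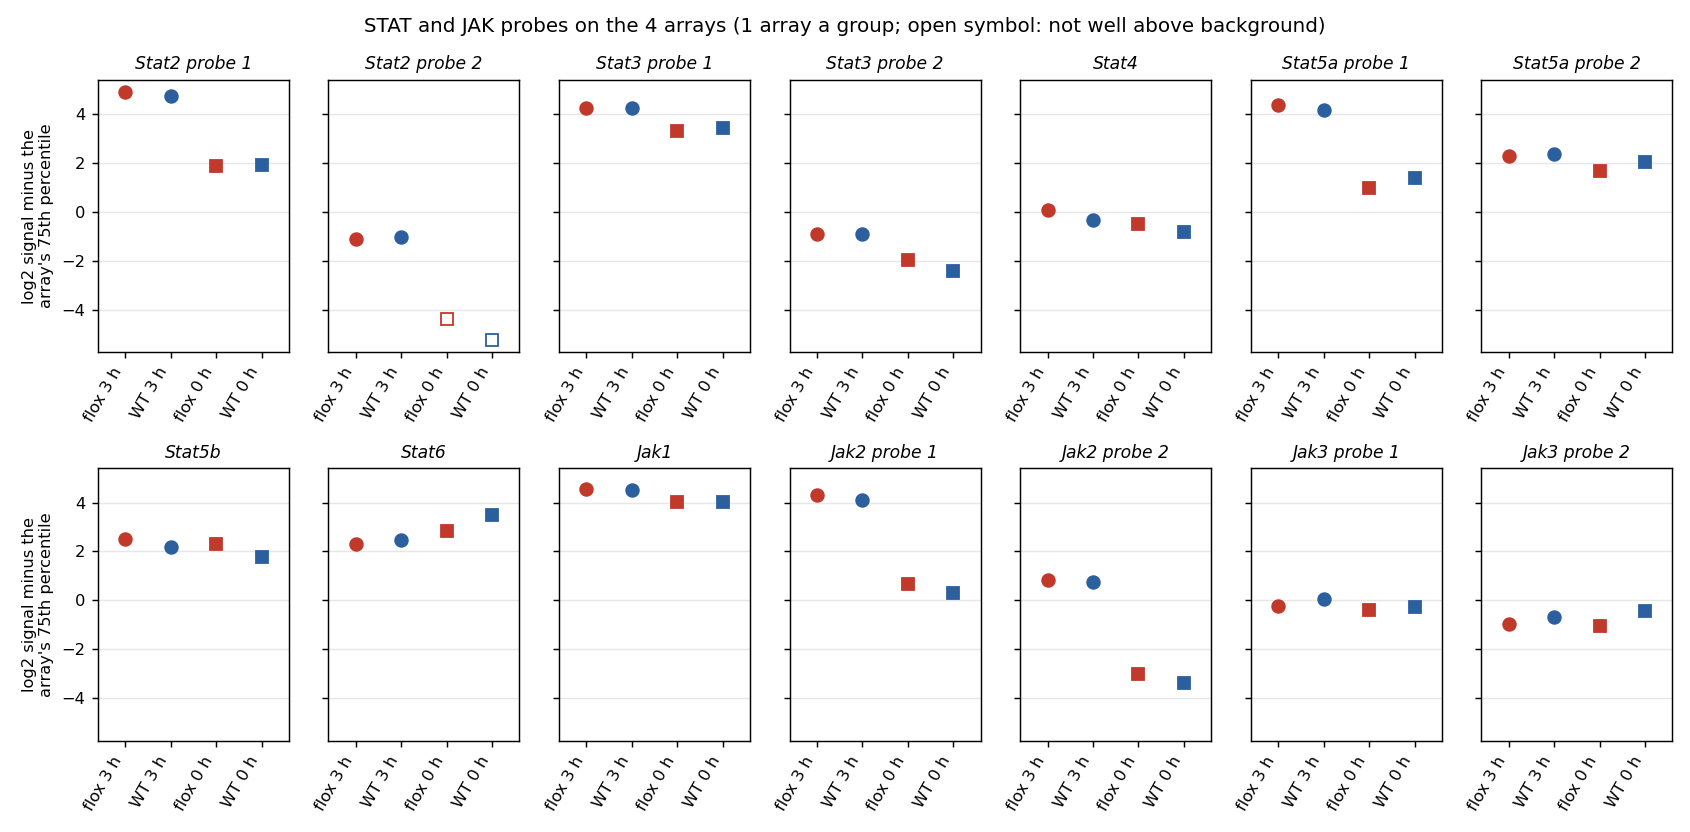
Level of each of the 14 probes (log2 signal minus the array's 75th percentile) on the 4 arrays, red for LysM-St18flox (flox) and blue for wild type (WT), circles for 3 h and squares for 0 h, open where not well above background. Jak2, Stat2 and the first Stat5a probe stand well above at 3 h, for example Jak2 at 4.31 and 4.12 against 0.68 and 0.28 at 0 h, while Stat6 is lower at 3 h. Levels of different probes are not comparable.

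**Figure D2:**
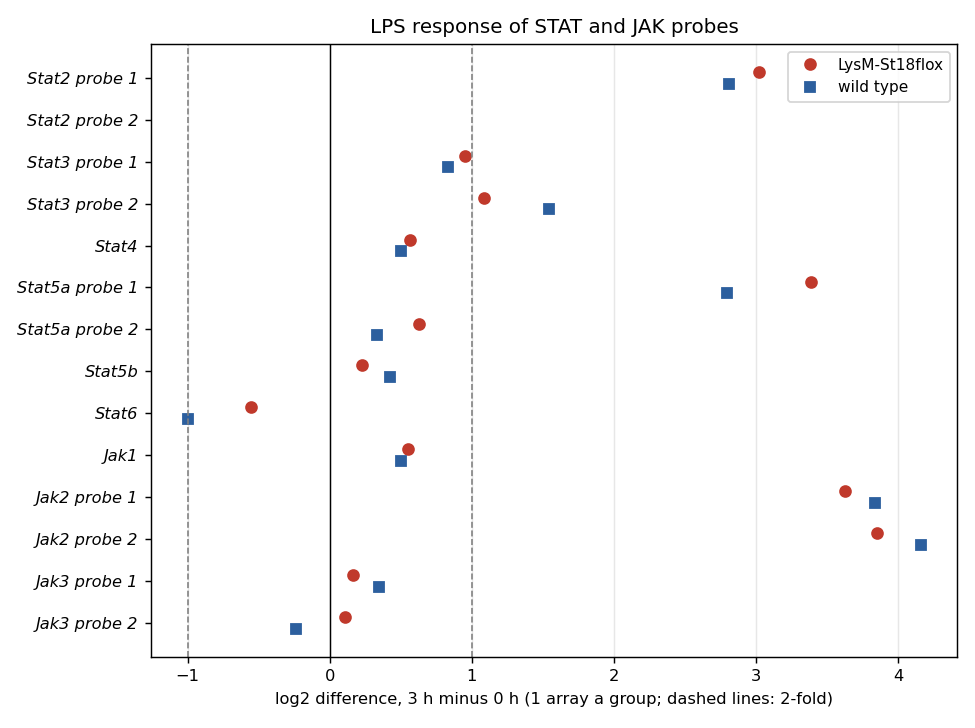
LPS response of each probe as the log2 difference of 3 h minus 0 h, with red circles for LysM-St18flox, blue squares for wild type and dashed lines at 2-fold. Both Jak2 probes, the first Stat2 probe and the first Stat5a probe lie at 2.79 or more, and the second Stat2 probe has no point because it was not well above background at 0 h.

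Among the kinases, Jak2 had the largest LPS response of the 9 genes by the brightest probe. JAK2 is a kinase of the receptors for interferon gamma, interleukin-12, erythropoietin and granulocyte-macrophage colony-stimulating factor. The first Jak2 probe had levels of 4.31 in LysM-St18flox cells and 4.12 in wild-type cells at 3 h, and of 0.68 in LysM-St18flox cells and 0.28 in wild-type cells at 0 h. Both 3 h arrays were far above both 0 h arrays. The difference was 3.63 in LysM-St18flox cells (12.4-fold) and 3.84 in wild-type cells (14.3-fold). These were the 105th largest higher difference of 12976 measured genes and the 100th of 12588. The second Jak2 probe had levels of 0.83 in LysM-St18flox cells and 0.76 in wild-type cells at 3 h, and of -3.03 and -3.40 in the same genotypes at 0 h. It gave the same picture as the first, with differences of 3.85 (14.4-fold) and 4.16 (17.9-fold).

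Jak1, the kinase shared by interferon, interleukin-6 and interleukin-10 receptors, had a smaller LPS difference than Jak2. Its levels were 4.55 in LysM-St18flox cells and 4.52 in wild-type cells at 3 h, and 4.01 in LysM-St18flox cells and 4.02 in wild-type cells at 0 h. The 2 genotypes gave nearly equal values at each time, and the LPS difference was 0.55 in LysM-St18flox cells (1.46-fold) and 0.50 in wild-type cells (1.42-fold). In the deposited values the Jak1 difference was 0.25 in LysM-St18flox cells and 0.23 in wild-type cells.

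Jak3, the lymphocyte-enriched kinase of the common gamma chain, had LPS responses under 2-fold by both probes. Its first probe had levels of -0.21 in LysM-St18flox cells and 0.07 in wild-type cells at 3 h, and of -0.38 in LysM-St18flox cells and -0.28 in wild-type cells at 0 h. The differences were 0.17 and 0.35, in that order of genotypes. The second probe had levels of -0.95 in LysM-St18flox cells and -0.68 in wild-type cells at 3 h, and of -1.06 in LysM-St18flox cells and -0.44 in wild-type cells at 0 h. Its differences were 0.11 in LysM-St18flox cells and -0.24 in wild-type cells, so the 2 probes pointed the same way in LysM-St18flox cells and opposite ways in wild-type cells. The array lists the probes under different Jak3 transcripts, NM_001190830 for the first and NM_010589 for the second.

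Stat2, which joins IRF9 in the main complex activated by type I interferon, was higher after LPS in both genotypes. Its first probe had levels of 4.89 in LysM-St18flox cells and 4.74 in wild-type cells at 3 h, and of 1.87 in LysM-St18flox cells and 1.93 in wild-type cells at 0 h. The genotypes were close at each time. The difference was 3.02 in LysM-St18flox cells (8.10-fold) and 2.81 in wild-type cells (7.01-fold). The second probe had levels of -1.11 in LysM-St18flox cells and -1.03 in wild-type cells at 3 h and was not well above background in either genotype at 0 h. Its bound was at least 8.12-fold higher at 3 h for LysM-St18flox and at least 8.67-fold for wild type. A bound replaces the dim 0 h level by the lowest level well above background on that array, or by the probe's own level where that is higher.

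Stat5a encodes one of a pair of closely related STAT5 proteins, and its 2 probes differed in size of response. The first probe had levels of 4.37 in LysM-St18flox cells and 4.18 in wild-type cells at 3 h, and of 0.98 in LysM-St18flox cells and 1.39 in wild-type cells at 0 h. That is a difference of 3.38 in LysM-St18flox cells (10.4-fold) and 2.79 in wild-type cells (6.93-fold). The second probe had levels of 2.28 in LysM-St18flox cells and 2.37 in wild-type cells at 3 h, and of 1.65 in LysM-St18flox cells and 2.04 in wild-type cells at 0 h. Its differences were 0.63 (1.54-fold) and 0.33 (1.26-fold), above 0 but under the threshold. The gap between the 2 probes was 2.76 in LysM-St18flox cells and 2.46 in wild-type cells. A gap at least that large was found in 0.469% of 4475 genes with 2 or more measured probes in LysM-St18flox cells and in 1.35% of 4293 in wild-type cells. The array lists both probes under the same accession, NM_011488, and probe sequences were not used here. The first probe was the brighter of the 2 at 3 h only, and the second was the brighter at 0 h in both genotypes. The high 3 h level of the first probe therefore also made it the probe brightest over the 4 arrays, and with the second probe Stat5a was not called.

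Stat5b, the other STAT5 gene, lies next to Stat5a in the RefSeq gene order on chromosome 11, with Stat3 on the far side of Stat5a. Its levels were 2.52 in LysM-St18flox cells and 2.19 in wild-type cells at 3 h, and 2.30 in LysM-St18flox cells and 1.76 in wild-type cells at 0 h. The LPS difference was 0.22 in LysM-St18flox cells (1.17-fold) and 0.43 in wild-type cells (1.34-fold). Whether transcripts of Stat5a and Stat5b, which are similar in sequence, bind each other's probes was not tested.

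Stat3, the main STAT of interleukin-6 and interleukin-10, was close to the threshold. Its first probe had levels of 4.26 in LysM-St18flox cells and 4.25 in wild-type cells at 3 h, and of 3.31 in LysM-St18flox cells and 3.41 in wild-type cells at 0 h. The difference was 0.95 in LysM-St18flox cells (1.94-fold) and 0.84 in wild-type cells (1.78-fold), just inside 2-fold. The second probe had levels of -0.89 in LysM-St18flox cells and -0.90 in wild-type cells at 3 h, and of -1.98 in LysM-St18flox cells and -2.44 in wild-type cells at 0 h. It passed the threshold in both genotypes, with 1.09 (2.12-fold) and 1.54 (2.91-fold). With the mean of its probes, Stat3 passed 2-fold in both genotypes, at 1.02 in LysM-St18flox cells and 1.19 in wild-type cells.

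Stat4, the STAT of interleukin-12 in T and NK cells, had levels of 0.05 in LysM-St18flox cells and -0.34 in wild-type cells at 3 h, and of -0.51 in LysM-St18flox cells and -0.85 in wild-type cells at 0 h. Each 3 h level was above the 0 h level of its genotype, by 0.56 in LysM-St18flox cells (1.48-fold) and by 0.50 in wild-type cells (1.42-fold).

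Stat6, the STAT of interleukin-4 and interleukin-13 and of alternative macrophage activation, was the one gene of the 9 whose brightest probe was lower at 3 h. Its levels were 2.29 in LysM-St18flox cells and 2.48 in wild-type cells at 3 h, and 2.84 in LysM-St18flox cells and 3.47 in wild-type cells at 0 h. The highest of the 4 levels was that of wild-type cells at 0 h. The difference was -0.56 in LysM-St18flox cells (1.47-fold lower) and -0.999 in wild-type cells, just short of the threshold. In the deposited values it was -0.71 in LysM-St18flox cells and -1.16 in wild-type cells, and the second of these passes 2-fold. Stat6 has 1 probe, so no second probe bears on it.

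**Figure D3:**
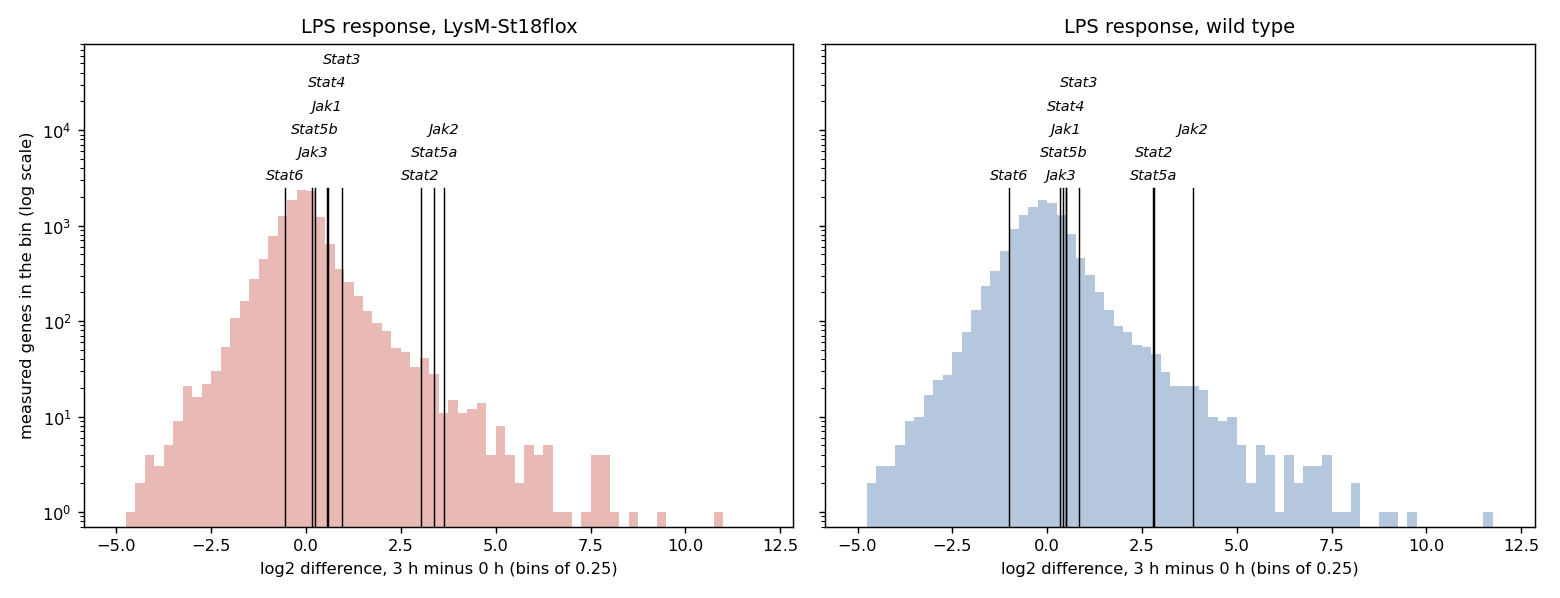
Distribution of the LPS response over all measured genes (bars, number of genes per bin of 0.25 log2, log scale) in LysM-St18flox cells and in wild-type cells, with a line for the brightest probe of each STAT and JAK gene. Stat2, Stat5a and Jak2 lie in the upper tail at 2.79 to 3.84, Stat6 lies left of 0, and the other 5 genes lie between 0 and 1.

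The genotype comparison asked whether LysM-St18flox cells differed from wild-type cells in these genes. None of the 9 reached 2-fold at either time. At 3 h the differences ran from -0.28 for Jak3 to 0.40 for Stat4, with 7 genes above 0 and 2 below, and the threshold was passed upward by 1.82% and downward by 1.40% of 13048 measured genes. At 0 h they ran from -0.63 for Stat6 to 0.54 for Stat5b, with 3 genes above 0 and 6 below, and it was passed upward by 3.04% and downward by 3.03% of 12679. Scaling on the array median gave 295 genes higher and 662 lower at 0 h, in place of 385 and 384, and moved the median of all genes by -0.14. The median of the 9 genes was 0.15 at 3 h and -0.06 at 0 h, while that of all measured genes was -0.01 at 3 h and -0.03 at 0 h.

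Stat5b and Stat4 were higher in LysM-St18flox cells at both times. Stat5b differed by 0.33 at 3 h (1.26-fold) and by 0.54 at 0 h (1.45-fold). Stat4 differed by 0.40 at 3 h (1.32-fold) and by 0.34 at 0 h (1.26-fold). For Stat4, 9.44% of measured genes had a difference at least as large in this direction at 3 h and 18.7% at 0 h. With normexp correction Stat4 differed by 0.34 at 3 h and 0.12 at 0 h. Stat4 is abundant in T and NK cells, and markers of these cells also stood higher in LysM-St18flox cells. Of the 18 T and NK cell markers, 10 of 16 measured passed 2-fold upward at 3 h (median 1.19), and at 0 h 7 of 14 did and 1 passed it downward (median 0.90). The summed signal of the 18, relative to the 75th percentile, was 15.7 in LysM-St18flox cells and 8.08 in wild-type cells at 3 h, and 12.6 in LysM-St18flox cells and 8.60 in wild-type cells at 0 h. On all 4 arrays Cd8a and Ncr1 failed the background flag. Summed B cell markers stood at 18.4 in LysM-St18flox cells and 3.17 in wild-type cells at 3 h, and at 23.1 and 4.04 at 0 h. Erythroid markers stood at 96.6 and 9.72 at 3 h and at 82.7 and 11.3 at 0 h, and summed neutrophil markers at 38.8 and 112 at 3 h and at 34.0 and 80.5 at 0 h. Single neutrophil markers went both ways, with 2 of 8 measured above 0 at 3 h and 4 of 9 at 0 h. The part of these cells in the STAT and JAK signals was not tested. Jak3, also abundant in lymphocytes, was lower in LysM-St18flox cells by both probes, at -0.28 and -0.27 at 3 h and at -0.10 and -0.62 at 0 h.

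Jak2 was higher in LysM-St18flox cells by both probes, at 0.19 and 0.06 at 3 h and at 0.40 and 0.37 at 0 h. Stat6 was lower, at -0.19 at 3 h and -0.63 at 0 h. Stat5a was higher by its first probe at 3 h (0.19) and lower at 0 h (-0.40), and lower by its second probe at both times (-0.09 and -0.39). Stat3 differed by 0.01 by either probe at 3 h, whereas at 0 h its probes gave -0.11 and 0.47. Stat2 differed by 0.15 and -0.08 by its 2 probes at 3 h and by -0.06 at 0 h by the probe measured there. Jak1 differed by 0.03 at 3 h and by -0.02 at 0 h.

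**Figure D4:**
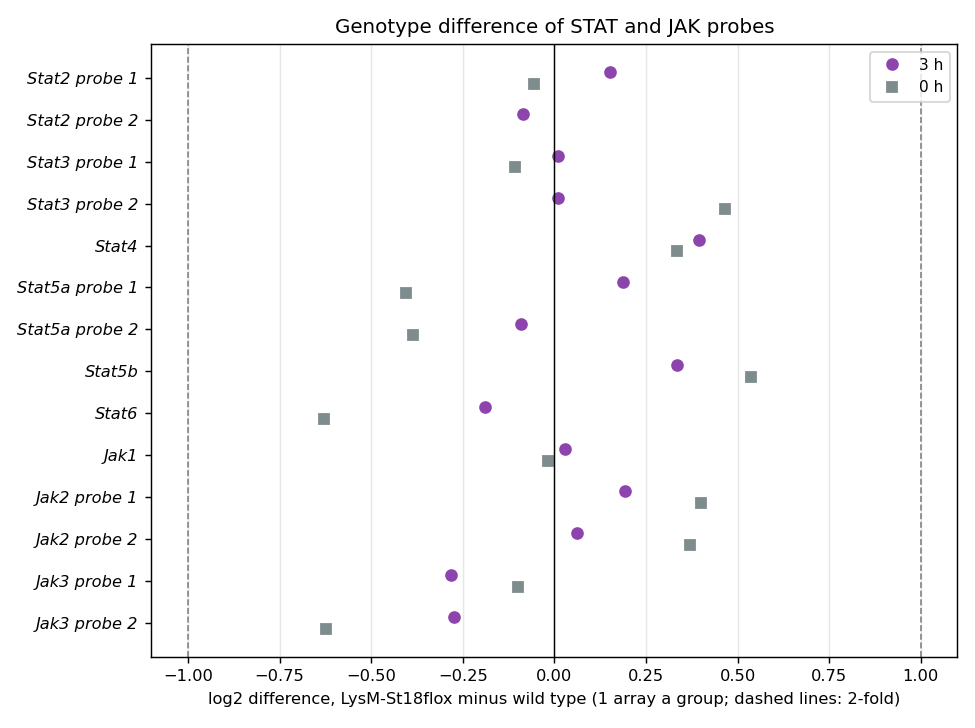
Genotype difference of each probe as log2 LysM-St18flox minus wild type, with purple circles for 3 h, grey squares for 0 h and dashed lines at 2-fold. No point reaches a dashed line. The 0 h points spread from -0.63 to 0.54 and the 3 h points from -0.28 to 0.40.

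The wild-type 0 h array enters the 0 h comparison and the wild-type LPS response, and the probes of a gene differed more in these. Over all genes with 2 or more measured probes, the median gap between probes was 0.18 for the genotype difference at 3 h and 0.42 at 0 h. It was 0.20 for the LPS response of LysM-St18flox cells and 0.49 for that of wild-type cells. The members did not all follow that order. Stat3 had a gap of 0.13 for the LPS response in LysM-St18flox cells and of 0.71 in wild-type cells, Jak3 had gaps of 0.06 and 0.59, and Jak2 of 0.22 and 0.33. For Stat5a the gap was larger in LysM-St18flox cells, as given above. For the genotype difference, the gap was 0.28 at 3 h and 0.02 at 0 h for Stat5a and 0.13 and 0.03 for Jak2, while it was 0.00 and 0.57 for Stat3 and 0.01 and 0.52 for Jak3.

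Each genotype's LPS response rests on its own pair of arrays, and the difference between them (LysM-St18flox minus wild type) ran from -0.21 for Jak2 to 0.59 for Stat5a by the probe brightest over the 4 arrays. Stat5a was the one gene of the 9 past 0.5 in size, a size reached by 22.8% of 12343 genes. The second Stat5a probe gave 0.29. Stat6 followed at 0.44, its lower level after LPS being smaller in size in LysM-St18flox cells. Stat2 was at 0.21, Stat3 at 0.12, Stat4 at 0.06, Jak1 at 0.05, Jak3 at -0.18 and Stat5b at -0.20. The second probes gave the opposite sign for Stat3 (-0.46) and Jak3 (0.35), and the same sign for Jak2 (-0.31). With 1 array a group these differences could not be tested.

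Genes around the STAT and JAK proteins were taken from lists written with earlier results of these data known. Over all measured genes, 8.12% passed 2-fold upward and 8.97% downward after LPS in LysM-St18flox cells. In wild-type cells the shares were 9.04% and 11.6%. The ligand list holds 25 cytokines that signal through JAKs, of which few were measurable at 0 h. After LPS, 7 of 8 measured ligands passed 2-fold upward in LysM-St18flox cells and 8 more did so by a bound, and in wild-type cells 3 of 6 and 11 more. A ligand that was well above background at 3 h only could be called by a bound in 1 direction only. Of all genes well above background on 1 of the 2 arrays, the bound passed 2-fold upward for 18.4% of 1405 in LysM-St18flox cells and for 21.9% of 1648 in wild-type cells. For Il6 the bound was at least 645-fold in LysM-St18flox cells and at least 573-fold in wild-type cells, the largest bounds of the list, and is named after its values were seen. Il15 was at 3.93 in LysM-St18flox cells and 3.65 in wild-type cells, and Il27 was at 2.91 and 2.80. Ebi3, a partner chain of interleukin-27, was at 1.41 and 1.89. Between genotypes, Ifng was 2.08 higher in LysM-St18flox cells at 3 h and not measured at 0 h, and Il4 was 1.72 higher at 3 h and 1.24 at 0 h, beside the T and NK cell markers given above. Mast cell markers also stood higher, with 4 of 6 measured at least 2-fold so at 3 h (median 1.51) and 3 of 7 at 0 h (median 0.61). Their summed signal was 17.8 in LysM-St18flox cells and 16.1 in wild-type cells at 3 h, and 9.77 and 5.31 at 0 h. Most of the 3 h sums is Hdc, which rose after LPS by 2.09 in LysM-St18flox cells and 2.24 in wild-type cells. Between genotypes Hdc was lower in LysM-St18flox cells, at -0.38 at 3 h and -0.23 at 0 h. Ms4a2 failed the background flag on all 4 arrays. The part of mast cells or lymphocytes in these values was not tested.

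Receptor chains had a median of 0.23 in LysM-St18flox cells and 0.28 in wild-type cells. In LysM-St18flox cells 5 of 26 measured chains passed 2-fold upward and 1 downward, beside 8.12% and 8.97% of all measured genes. In wild-type cells 4 of 25 were higher and 2 lower, beside 9.04% and 11.6%. Il6ra, the interleukin-6 binding chain, was lower in both, at -1.60 and -1.96. Il4ra, which signals to STAT6, was higher in both, at 1.59 and 1.46, as was Il10ra, at 1.61 and 1.38. Il15ra was at 2.47 in LysM-St18flox cells and 0.98 in wild-type cells. Il5ra was higher in LysM-St18flox cells by 1.48 at 3 h and 1.52 at 0 h. The eosinophil markers Siglecf and Ccr3 also stood higher there, by at least 2-fold at 0 h and by less at 3 h. Prg2 and Epx failed the background flag on all 4 arrays. Summed eosinophil markers stood at 5.279 in LysM-St18flox cells and 2.940 in wild-type cells at 3 h, and at 6.251 and 2.825 at 0 h. The part of eosinophils or B cells in the Il5ra value was not tested. Osmr, an oncostatin M receptor chain, was lower in LysM-St18flox cells by 1.21 on the log2 scale at 3 h (-1.21). Mesothelial and fibroblast markers were lower beside it, with 8 of 10 measured at least 2-fold lower at 3 h (median -1.45) and 6 of 9 at 0 h (median -1.10). Their summed signal was 4.84 in LysM-St18flox cells and 13.6 in wild-type cells at 3 h, and 6.17 and 12.96 at 0 h, and their part in the Osmr value was not tested.

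Inhibitors of the pathway differed in direction. In LysM-St18flox cells 7 of 18 passed 2-fold upward and 1 downward, beside 8.12% and 8.97% of all measured genes. In wild-type cells 5 were higher and 2 lower, beside 9.04% and 11.6%. Cish, an inhibitor of STAT5 signalling, was at 6.95 in LysM-St18flox cells and 8.07 in wild-type cells, Socs1 at 6.37 and 5.79, Socs3 at 5.85 and 6.29, and Usp18, an inhibitor of interferon receptor signalling, at 5.44 and 5.13. Ptpn6, the phosphatase SHP-1, was at -0.55 and -1.18. Cish was also higher between genotypes, by 0.46 at 3 h and 1.58 at 0 h. Its wild-type level at 0 h was -3.87, close to -4.14, the lowest level well above background on that array. That level enters both the 0 h difference and the wild-type LPS response of Cish. Of 9 partners of the pathway, Irf9, which binds STAT2, was at 1.79 and 1.76 and Nmi at 2.03 and 1.81. Sh2b1 was at -0.74 and -1.15 and the coactivator gene Ep300 at -0.66 and -0.98.

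Lists of genes often named as targets of single STATs were treated in the same way. Of all measured genes, 8.12% passed 2-fold upward and 8.97% downward in LysM-St18flox cells, and 9.04% and 11.6% in wild-type cells. All 12 measured targets linked to STAT2 passed 2-fold upward in LysM-St18flox cells (median 5.67) and all 11 did in wild-type cells (median 5.79), with Ifit1 at 9.36 and 9.73. Also high were Cmpk2 at 7.84 and 6.99, Rsad2 at 7.72 and 7.21 and Ifit3 at 7.61 and 6.99. Ifit2 was at 8.71 in LysM-St18flox cells, and at 3 h it stood 1.22 above wild type. Targets linked to STAT3 had 11 of 16 members higher and 1 lower in each genotype, with medians of 1.78 and 1.53. Among them Timp1 was at 5.44 and 4.04, Bcl3 at 3.05 and 3.93 and Pim1 at 2.41 and 2.87, and between genotypes at 0 h Timp1 stood at -1.64 and Zfp36 at -0.86.

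Targets linked to STAT5 had 5 of 8 members higher in LysM-St18flox cells and 4 of 8 in wild-type cells, with Ccnd2 at 4.53 and 4.82 and Socs2 at 2.04 and 1.48. Osm stood at 1.32 and 0.66. Targets linked to STAT6 had a median of 0.27 in LysM-St18flox cells and 0.39 in wild-type cells. In each, 2 of 12 measured members were higher and none lower, and 1 more was higher by a bound. The upward share of all measured genes was 8.12% in LysM-St18flox cells and 9.04% in wild-type cells. Ccl17, named after its values were seen, was higher by at least 12.1-fold in LysM-St18flox cells and by 13.1-fold in wild-type cells. Irf4 was at 1.06 and 0.90, Ccl24 at 0.44 and 0.46 and Chil3 at 0.29 and 0.57. Retnla exceeded its wild-type level in LysM-St18flox cells by 1.94 (3 h) and 1.80 (0 h), and Alox15, also a marker of large peritoneal macrophages, by 1.30 and 2.30. Of that marker list, Alox15 included, 7 of 8 measured were above 0 at each time (median 0.77 at 3 h, 0.97 at 0 h). Its summed signal was lower in LysM-St18flox cells, at 219 against 290 at 3 h and 176 against 208 at 0 h. Most of that sum is Fn1, by far the brightest marker of the list. Fn1 was also the only measured marker below 0, at -0.48 at 3 h and -0.35 at 0 h. The part of large peritoneal macrophages in the Alox15 and Retnla values was not tested. The lists share members, since Socs2, Socs3, Cish, Osm, Pim1, Bcl2l1 and Il4ra stand in more than 1 of them.

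**Figure D5:**
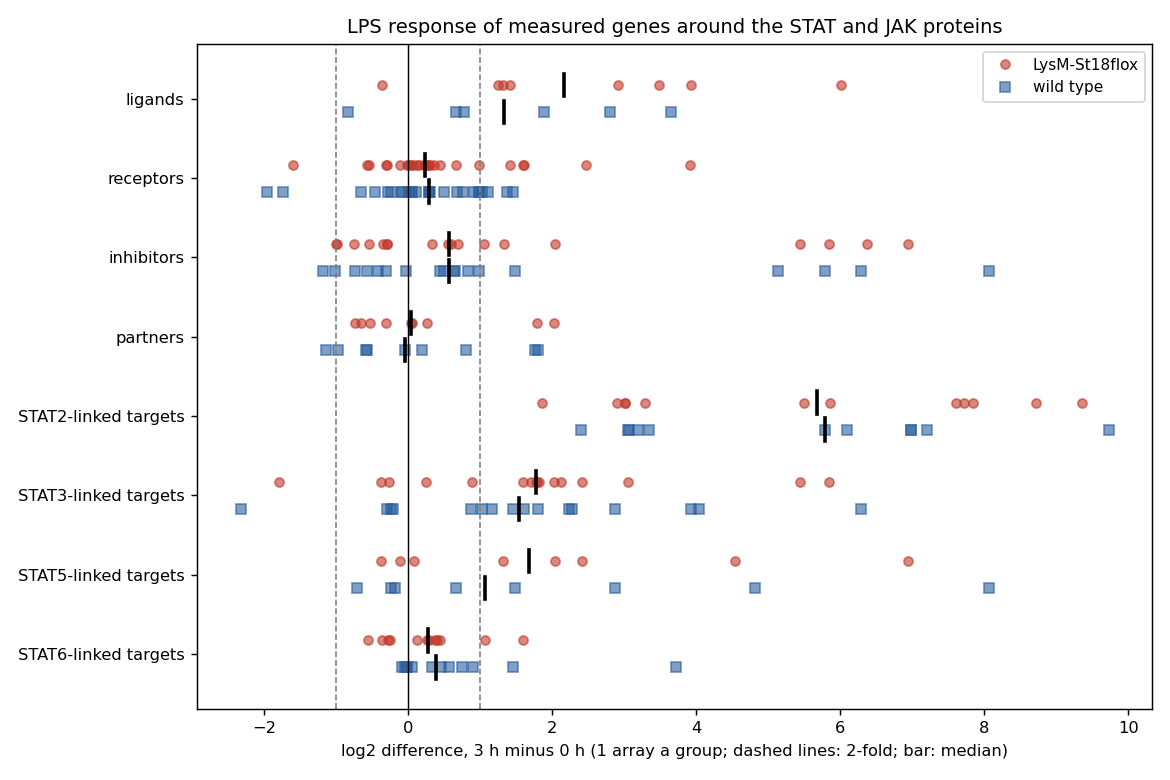
LPS response (log2, 3 h minus 0 h) of each measured gene of the 8 lists around the STAT and JAK proteins, red circles for LysM-St18flox and blue squares for wild type, with a black bar at each median and dashed lines at 2-fold. Targets linked to STAT2 lie farthest right, with medians of 5.67 and 5.79, while partners centre near 0, with medians of 0.03 and -0.05.

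Likeness over the 4 arrays was taken as the root mean square distance after each gene was centred on its own mean. The pool was 11654 genes measured on all 4 arrays, with clone names and predicted genes left out. Some genes had patterns most like those of 2 members. For Jak2 they were Ddx58 (0.05 log2), Met (0.07), Nfkbie (0.07), Irf1 (0.08) and Casp4 (0.11). Their LPS responses ran from 3.37 to 3.81 in LysM-St18flox cells and from 3.68 to 3.91 in wild-type cells. For Stat5b, which had the largest mean genotype difference, they were Zfp1 (0.03), Hdhd2 (0.03), Nemf (0.04), Cmpk1 (0.04) and Krt83 (0.04). With 4 arrays, many genes share so simple a pattern, and likeness is given as a description.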

How the data were processed

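The deposited files give an intensity per spot of a 1-colour (Cy3) Agilent array. The submitters' processing notes and the file headers name Agilent Feature Extraction, version 11.0.1.1, and the intensity used is that after background subtraction and spatial detrending and with no normalization between arrays. The deposited value table holds log2 values of 25482 probes. How it was normalized is not stated in its header or the labels. Its sorted values were the same in all 4 columns (median 9.58, largest gap 0.00036), as after quantile normalization, and its scale and direction were taken from correlations of 0.99994 or more with the log2 signal of the same array. The centring behind it stays unknown, and it served as an alternative.

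Spots with an outlier flag and control spots were left out, spots of 1 probe were averaged as log2, and the 75th percentile of each array was subtracted (Python 3.11.15, pandas 2.3.3). Of 56605 probes, 32994 were named through the RefSeq table of assembly GRCm38.p6, without accession versions, for 22911 genes, and 23611 had no name here. The file headers name another build, so gene coordinates were not used to name probes. The upstream windows and the gene order on chromosome 11 did use RefSeq coordinates. Each gene took the values of the probe brightest on the mean of the 4 arrays and counted as measured where that probe was well above background, unsaturated and unflagged on both arrays. With 1 array a group no p-value was computed. The code for scaling and calling was checked on simulated data whose changes were far above the simulated spot noise. That check cannot speak to error between arrays or mice. Alternatives were median scaling, quantile normalization, normexp correction of median signals with an offset of 50 (limma 3.58.1) with quantile normalization, the value table, no background filter, a filter on all 4 arrays, the mean of probes and, added after seeing the data, the probe brightest on the 0 h arrays.

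The genes named were all 9 members with every probe. Of each list they were the 4 largest mean LPS responses among genes measured on all arrays of both LPS comparisons, which leaves out genes with only a bound, and the 2 largest genotype differences. For the member with the largest LPS response and the member with the largest genotype difference, the 5 genes most like it were added. Members and lists were chosen with earlier results of these data known. Marker lists are given beside the members for macrophages, large peritoneal macrophages, neutrophils, mast cells and eosinophils. Others cover T and NK cells, B cells, erythroid cells, and mesothelial cells and fibroblasts. A dendritic cell list was also made, and its values are not given here.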

Additional observations from a re-analysis of the deposited data

Results flagged for a closer look

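Every value here is a difference between single arrays, and none of the differences between groups was tested. Of the 14 STAT and JAK probes, 5 had opposite signs under the same contrast. Of 12343 genes measured on all 4 arrays, 36.9% had opposite signs between genotypes at 3 h and 0 h, and 21.5% had opposite signs of the LPS response in the 2 genotypes. The first Stat5a probe differed between genotypes by 0.19 at 3 h and -0.40 at 0 h. The first Stat2 probe gave 0.153 at 3 h and -0.0567 at 0 h, the first Stat3 probe 0.00956 and -0.108, and Jak1 0.0295 and -0.0178. For Stat2, Stat3 and Jak1 at least 1 value of the pair is no larger than the spot SD of a difference of 0.05 to 0.10, and the Jak1 signs and the Stat3 sign at 0 h changed under other processing. The second Jak3 probe had an LPS response of 0.11 in LysM-St18flox cells and -0.24 in wild-type cells.

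Of 47 other genes named by the rules above, 12 had such opposite signs. Between genotypes Il15ra differed by 0.51 at 3 h and -0.98 at 0 h, Socs1 by 0.49 and -0.0945, Socs3 by -0.17 and 0.27, and Sh2b1 by 0.000923 and -0.41. It was 0.28 at 3 h and -0.23 at 0 h for Rsad2, 0.68 and -0.17 for Cmpk2, -0.32 and 0.56 for Bcl3, and -0.42 and 0.0396 for Pim1. For Zfp36 it was 0.0107 at 3 h and -0.86 at 0 h, and for Nfkbie -0.0068 and 0.34. The LPS response was -0.25 in LysM-St18flox cells and 0.75 in wild-type cells for Alox15, and 0.12 and -0.0187 for Retnla.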

How the results depend on the processing

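Under 8 alternatives, no called STAT or JAK difference changed sign. The count of 3 genes at least 2-fold higher after LPS was 2 in both genotypes when probes were chosen on the 0 h arrays, an alternative added after seeing the data. It was 4, with Stat3, in both genotypes with the mean of probes and in LysM-St18flox cells with median scaling. With probes chosen on the 0 h arrays, Stat5a was at 0.63 in LysM-St18flox cells and 0.33 in wild-type cells. In wild-type cells the number at least 2-fold lower after LPS was 1 with quantile normalization, 1 with normexp correction and 1 in the deposited value table, against 0 otherwise. That gene is Stat6, whose difference ran from -1.17 to -0.91. Of 36 gene differences, 31 kept their side of 2-fold under all 8 and 32 kept their sign. The exceptions in side were Stat5a in both genotypes, Stat6 in wild-type cells and Stat3 in both genotypes (0.67 to 1.18 in LysM-St18flox cells, 0.50 to 1.19 in wild-type cells). The exceptions in sign were Stat5a at 3 h (-0.09 to 0.20), Stat3 at 0 h (-0.24 to 0.18) and Jak1 between genotypes (-0.04 to 0.05 at 3 h, -0.15 to 0.17 at 0 h). With the mean of its probes, Stat5a was at 2.01 in LysM-St18flox cells and 1.56 in wild-type cells. Over all genes, normexp correction gave 131 higher and 94 lower at 3 h (237 and 183 with the processed signal and the 75th percentile) and 252 and 246 between genotypes at 0 h. The value table gave 119 lower at 3 h. Without a background filter there were 992 higher and 1039 lower between genotypes at 3 h, 1473 and 1347 at 0 h, and after LPS 1835 and 2232 in LysM-St18flox cells and 2215 and 2767 in wild-type cells. No paired analysis was possible because each group has 1 array. The single array a group limits every value, and the second Stat2 probe was not well above background at 0 h.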
